A study of Homo sapiens with 16 samples.

Results

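Metallothioneins and the zinc exporter SLC30A1 were followed over 45 hours of HER2 inhibitor treatment in MCF-10A cells, a nontransformed human breast epithelial cell line. The group holds 9 genes, MT1A, MT1E, MT1F, MT1G, MT1H, MT1M, MT1X, MT2A and SLC30A1, and was taken by gene symbol from the array's annotation. Each gene had 1 probe, so that 9 of the 20589 rows of the array were described. The cells grew without serum in Ham's F-12 medium with insulin, epidermal growth factor, transferrin, selenium, T3 and hydrocortisone, a glucocorticoid, and all cultures had this medium. Parallel cultures were treated with CP724,714, a small-molecule inhibitor of the HER2 kinase, at 1 µM, and RNA was taken every 3 hours. There was 1 Illumina array at each of 16 time points from 0 to 45 hours, and the 0 hour culture was untreated. There was neither a replicate at any time nor a series without inhibitor, and the medium was renewed when the inhibitor was added, so the effect of the inhibitor cannot be told apart from those of fresh medium and of time in culture.

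Metallothioneins are small cysteine-rich proteins that bind zinc and copper in the cytoplasm and nucleus, and that also bind cadmium and react with oxidants. The main human genes lie in 1 cluster. Zinc that rises in the cell binds the transcription factor MTF1, which moves to metal response elements in the promoters of metallothionein genes and of SLC30A1 (ZnT1). SLC30A1 carries zinc out across the plasma membrane, and the SLC39A (ZIP) family carries it into the cytoplasm. Glucocorticoids and oxidative stress also raise metallothionein transcripts, MT2A among them.

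In RefSeq (GRCh38.p14), 8 of the 9 genes lay on chromosome 16, among the 15 genes and pseudogenes that run from MT2A to MT1X in the order MT2A, MT1L, MT1E, MT1M, MT1JP, MT1A, MT1DP, MT1CP, MT1B, MT1F, LOC101927536, MT1G, MT1H, MT1IP and MT1X. SLC30A1 lay on chromosome 1. MT1B was the 1 protein-coding gene of this run that was not a member. Promoters of 4 of the 9 genes were matched in RefSeq, those of MT2A, MT1X, MT1H and SLC30A1, and MT1A, MT1E, MT1F, MT1G and MT1M were not matched. The 250 bases before the transcription start are shown because the metal response elements read by MTF1 lie there in this family. Capitals mark each match, on either strand, to a core of the metal response element (TGCACNC or TGCGCNC, where N is any base), and no matches overlapped. The windows are MT2A at chr16:56608334-56608583 (plus strand), MT1X at chr16:56682220-56682469 (plus strand), MT1H at chr16:56669564-56669813 (plus strand) and SLC30A1 at chr1:211579162-211579411 (minus strand), each written 5′ to 3′ on the strand of its gene.
MT2A: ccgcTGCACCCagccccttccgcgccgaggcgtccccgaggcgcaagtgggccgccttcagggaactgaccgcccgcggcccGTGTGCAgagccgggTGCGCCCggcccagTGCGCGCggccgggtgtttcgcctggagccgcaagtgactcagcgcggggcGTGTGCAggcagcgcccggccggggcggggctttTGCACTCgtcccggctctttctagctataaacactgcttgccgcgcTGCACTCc
MT1X: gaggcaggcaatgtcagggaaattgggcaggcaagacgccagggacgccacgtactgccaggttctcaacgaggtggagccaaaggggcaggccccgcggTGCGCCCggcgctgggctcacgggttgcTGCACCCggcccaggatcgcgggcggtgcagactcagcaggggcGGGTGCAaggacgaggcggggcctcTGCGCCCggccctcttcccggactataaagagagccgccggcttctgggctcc
MT1H: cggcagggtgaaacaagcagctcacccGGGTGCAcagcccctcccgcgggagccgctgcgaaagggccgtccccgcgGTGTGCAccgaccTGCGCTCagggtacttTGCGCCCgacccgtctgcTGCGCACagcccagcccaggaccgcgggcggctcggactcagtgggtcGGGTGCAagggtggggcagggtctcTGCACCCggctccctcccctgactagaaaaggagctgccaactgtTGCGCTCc
SLC30A1: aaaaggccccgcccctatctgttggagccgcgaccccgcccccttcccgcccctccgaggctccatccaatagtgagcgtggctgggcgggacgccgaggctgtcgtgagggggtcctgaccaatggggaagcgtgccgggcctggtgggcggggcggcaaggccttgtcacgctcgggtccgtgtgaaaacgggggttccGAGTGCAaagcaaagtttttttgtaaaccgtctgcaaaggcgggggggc

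At least 1 such core was found in 24.8% of the 35116 RefSeq promoter windows of this length. The MT2A window held 7 matches, a number reached by 0.031% of all windows. MT1H held 8, reached by 0.017% of windows, and MT1X held 4, reached by 0.37%. The SLC30A1 window held 1. The core of the antioxidant response element (TGACNNNGC, both strands), which NRF2 binds, was found once each in MT2A, MT1X and SLC30A1, not in MT1H, and in 10.9% of all windows. A match to these letters is a description of the sequence and not evidence of a bound site.

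The arrays were alike in depth. Between 10325 and 10889 rows an array were above background, at a detection p under 0.05, and the median deposited intensity was between 210 and 254. Probes never above background had a median intensity of 182 at 21 hours and 169 at 24 hours, a step between the windows of 12-21 and 24-33 hours used below. This median ranged from 161 to 192 over the arrays and also moved from 169 to 179 between 30 and 33 hours and from 172 to 161 between 42 and 45 hours. Of the basal mammary markers described here, KRT5, KRT17 and CDH3 were above background on 16 arrays, TP73L on 10, LAMB3 on 4 and KRT14 on 1. Despite its count, the higher median intensity of the 2 LAMB3 probes was 2502, well above that of probes never above background. The epithelial markers CDH1, KRT8, KRT18 and KRT19 were above background on 16 arrays. The hormone receptors ESR1 and PGR, the leukocyte gene CD3D, the fibroblast collagens COL1A1, COL1A2 and COL3A1, and the endothelial genes CDH5 and VWF were above background on 0 arrays, whereas CD68 was on 16, PECAM1 and GATA3 on 15, and PTPRC and DCN on 5.

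Of the 9 members, 7 were above background on all 16 arrays and were tested. The probes of MT1H and MT1M were above background on 0 of 16 arrays, with deposited intensities of 128 to 195 and of 126 to 210. Negative control beads averaged 166 to 199 over the arrays. The level of these members was not detectable on this array, and no change was computed for them.

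Values below are normalized log2 intensities, in which 1 unit is a doubling, and they were compared only within a probe, since the brightness of different probes has no common scale. The 16 time points were cut into 4 windows of 4 consecutive arrays, 0-9, 12-21, 24-33 and 36-45 hours. The windows were compared with limma, with p-values adjusted by Benjamini-Hochberg over 11957 tested probes and called under 0.05. Arrays of a window are not replicates of a condition, and their spread also holds change within the window. By a smooth curve over time (a natural cubic spline with 3 degrees of freedom, limma's moderated F-test), MT1F, SLC30A1, MT1E and MT1G were called as changing, 4 of 7, and MT1A, MT1X and MT2A were not. Among all tested probes, 54.6% were called, so this share of the members lay near the background. Between the first and last windows MT1E and MT1G rose, where 16.2% of all probes rose, and MT1F and SLC30A1 fell, where 15.0% of all probes fell. The median difference of the 7 members was 0.01 and that of all tested probes was -0.02. The 4 moved in 2 directions.

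**Figure D1:**
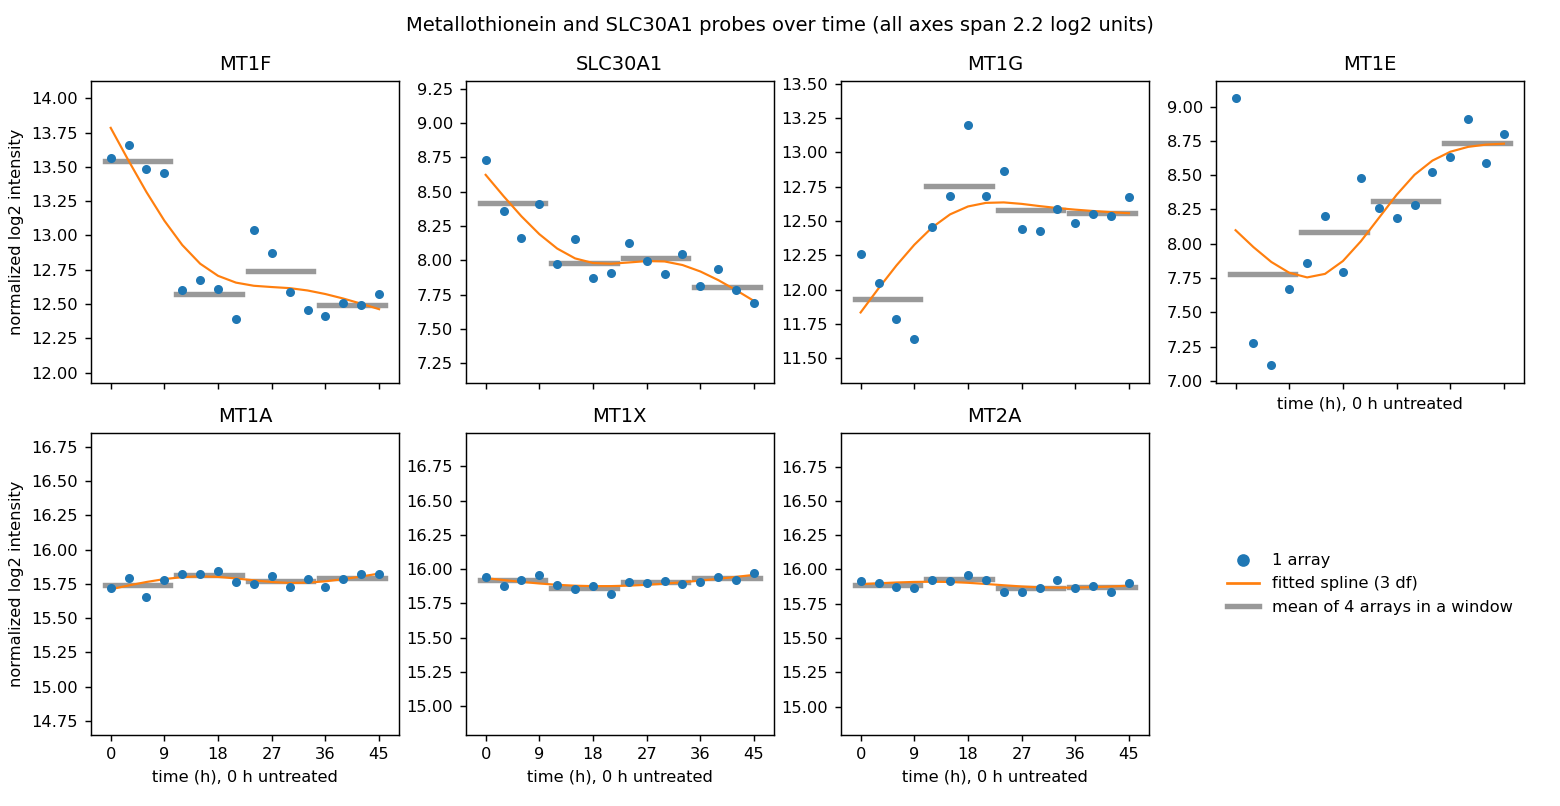
Normalized log2 intensity (y axis, each spanning 2.2 log2 units) of the 7 tested probes against time in hours (x axis). Points are single arrays, grey bars the means of 4 consecutive arrays and lines the fitted splines. MT1F dropped between 9 and 12 hours, SLC30A1 was highest at 0 hours and lowest at 45 hours, MT1G rose after 9 hours, MT1E fell from 0 to 3 hours and then climbed, and the lower 3 probes spanned at most 0.19 log2 units.

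MT1F encodes a metallothionein of the MT1 group. Of the 7 tested members it had the largest fall between the means of the first and last windows. On the log2 scale its level was 13.56 at 0 hours, 13.66 at 3 hours, 13.49 at 6 hours and 13.45 at 9 hours. At 12, 15, 18 and 21 hours it was 12.60, 12.67, 12.61 and 12.39. The highest of the 12 arrays from 12 hours on stood at 13.04, so that the first window did not overlap with any later array. For this and like separations below, the share of all tested probes that showed one is not given here. The step between 9 and 12 hours alone was 1.80-fold downward. Of all tested probes, 880 moved by at least 1.7-fold in either direction in that interval, against 896 between 3 and 6 hours, 764 between 33 and 36 hours and 641 or fewer in each other interval.

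The probe then moved up once and came down again. MT1F stood at 13.04, 12.87, 12.59 and 12.46 at 24, 27, 30 and 33 hours, and at 12.41, 12.51, 12.49 and 12.57 from 36 to 45 hours. The rise between 21 and 24 hours was 1.56-fold, from a deposited intensity of 5690 to one of 9196. At the same step the median of probes never above background went from 182 to 169, and the part of that drop in the rise was not tested. The mean level fell from 13.54 ± 0.09 (SD, n = 4) in the first window to 12.57 ± 0.12 in the second, by 0.97 ± 0.10 on the log2 scale (SE, limma adjusted p = 3.67e-06), where 14.4% of all tested probes fell. The last window was at 12.50 ± 0.07, a difference of -1.05 ± 0.10 from the first (adjusted p = 8.75e-07), or 2.06-fold lower. A share of 1.12% of tested probes had a lower difference. MT1F was called in both comparisons under each alternative processing and without any single array.

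SLC30A1 fell in the same comparisons as MT1F. Its level was 8.73, 8.36, 8.16 and 8.41 at 0, 3, 6 and 9 hours, and 7.97, 8.15, 7.87 and 7.91 from 12 to 21 hours. From 24 to 33 hours it was 8.12, 7.99, 7.90 and 8.05, and from 36 to 45 hours 7.81, 7.94, 7.78 and 7.69. The untreated array was the highest of the 16 and that of 45 hours the lowest, 2.06-fold apart. The first and last windows did not overlap. The lowest array of the first window, at 8.16, lay just above the highest of the 12 later arrays, at 8.15. How large a share of all tested probes separated so is not given here.

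The mean of SLC30A1 was 8.41 ± 0.23 (SD, n = 4) in the first window and 7.98 ± 0.13 in the second, a difference of -0.44 ± 0.12 (SE, limma adjusted p = 0.0119). This earlier difference was -0.27 with median scaling of the arrays (adjusted p = 0.096) and -0.28 without background correction (adjusted p = 0.00921), and with only the 8 arrays compared in the fit its adjusted p was 0.0697. The last window was at 7.80 ± 0.10, lower than the first by 1.53-fold, with a difference of -0.61 ± 0.12 (adjusted p = 0.00104), and this call was kept under every alternative. The probe was dim, at a deposited intensity of 334 to 576, and without background correction the difference was -0.38 (adjusted p = 0.000892). Without the untreated array it was -0.51.

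MT1G, another MT1 gene, first fell and then rose. Its level was 12.26, 12.05, 11.79 and 11.64 at 0, 3, 6 and 9 hours, lower at each time than at the one before. It was 12.46 and 12.68 at 12 and 15 hours, 13.20 at 18 hours and 12.68 at 21 hours. The step up between 9 and 12 hours was 1.76-fold, and lay in the same interval as the step down of MT1F. From 24 to 33 hours MT1G was at 12.86, 12.44, 12.43 and 12.59, and from 36 to 45 hours at 12.48, 12.55, 12.54 and 12.67. All 12 arrays from 12 hours on, with a lowest value of 12.43, were thus above the 4 of the first window. How large a share of all tested probes separated so is not given here.

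MT1G averaged 11.93 ± 0.27 (SD, n = 4) in the first window and 12.75 ± 0.31 in the second. The rise of 0.82 ± 0.14 (SE, limma adjusted p = 0.000439), or 1.77-fold, stood where 15.1% of all tested probes rose. The last window was 0.63 ± 0.14 above the first (adjusted p = 0.00297), or 1.55-fold. Both calls were kept under every alternative. The early fall was tested in a fit of 8 pairs of consecutive arrays. Between 0-3 and 6-9 hours MT1G fell by 0.44 ± 0.15 (adjusted p = 0.043), the 1 member of 7 called there, where 24.7% of all tested probes were called in either direction. This early call was lost without the array of 0, 6, 9, 30, 33, 36 or 39 hours, with median scaling, without an intensity trend in the variance and with only the 4 arrays compared. The spline call of MT1G (adjusted p = 0.0466) was lost when any 1 of 13 arrays was left out, with adjusted p-values from 0.0027 to 0.0891 over the 16 arrays. The call was also lost without an intensity trend (limma adjusted p = 0.076) and with a straight line in time (adjusted p = 0.138). With a spline of 5 degrees of freedom it was kept (adjusted p = 2.48e-05).

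MT1E dropped at once and then climbed. Its level was 9.06 on the untreated array and 7.28, 7.11 and 7.67 at 3, 6 and 9 hours. The step from 0 to 3 hours was 3.44-fold downward, from a deposited intensity of 682 to one of 325, and rests on the single untreated array. From 12 to 21 hours MT1E was at 7.86, 8.20, 7.79 and 8.48, and from 24 to 33 hours at 8.26, 8.19, 8.28 and 8.52. From 36 to 45 hours it was at 8.63, 8.91, 8.59 and 8.80, all 4 below the untreated array and above every array from 3 to 33 hours.

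The mean of MT1E was 7.78 ± 0.89 (SD, n = 4) in the first window, where the untreated array is the outlying one, and 8.73 ± 0.15 in the last. The difference was 0.95 ± 0.29 (SE, limma adjusted p = 0.0198), or 1.93-fold. It was 1.38 without the untreated array, and the call was lost without the array of 3, 6 or 39 hours and with only the 8 arrays compared in the fit (adjusted p = 0.0876). The spline call (adjusted p = 0.029) was lost without the array of 9, 12, 39 or 45 hours. Between 0-3 and 42-45 hours the difference was 0.52 (adjusted p = 0.329), and without background correction the difference of the first and last windows was 0.56 (adjusted p = 0.0251). Between 0-3 and 6-9 hours the difference was -0.78 ± 0.38 (adjusted p = 0.158). It was 0.11 without the untreated array (adjusted p = 0.827), a turned direction, and -1.67 without the array of 3 hours, which is called (adjusted p = 0.000123). Between the first and second windows MT1E was 0.30 ± 0.29 higher (adjusted p = 0.478), and 0.73 higher without the untreated array, which is called (adjusted p = 0.00322).

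**Figure D2:**
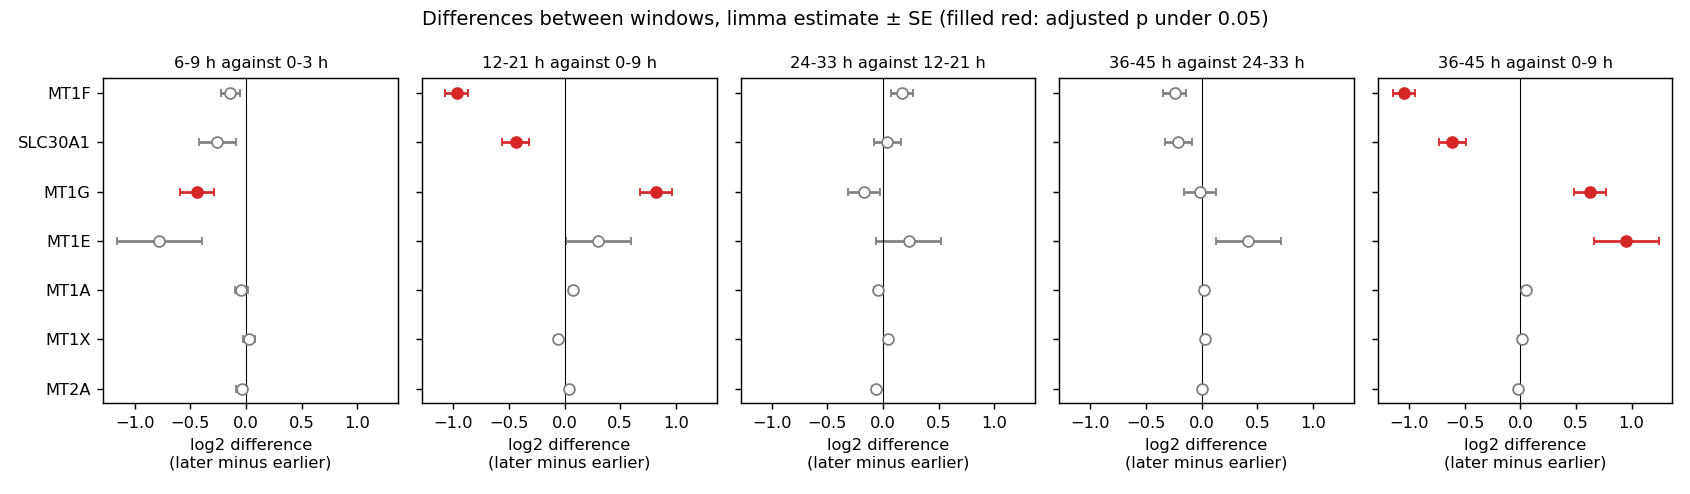
Log2 difference of the later from the earlier window (x axes) for each tested probe (y axis) in 5 comparisons. Points are limma estimates and bars 1 SE, and filled red points have an adjusted p under 0.05. Against 0-9 hours, MT1F and SLC30A1 are called below 0 and MT1G above 0 at both 12-21 and 36-45 hours, and MT1E is called above 0 at 36-45 hours.

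Between the middle windows little moved. From 12-21 to 24-33 hours limma called 0 of the 7 members, 1 of which (MT2A) had an unadjusted p under 0.05, and 0.0251% of all tested probes. From 24-33 to 36-45 hours it also called 0 of 7, whereas 38.0% of all tested probes were called, and MT1F was the 1 member with an unadjusted p under 0.05 (difference -0.24 ± 0.10, adjusted p = 0.0649). MT1E was 0.42 ± 0.29 higher in that comparison (adjusted p = 0.289). With only the 8 arrays compared in the fit, this rise of MT1E was called (limma adjusted p = 0.00471). It was also called without the untreated array (adjusted p = 0.0377), and under no other alternative. The difference of SLC30A1 from 24-33 to 36-45 hours was -0.21 ± 0.12 (adjusted p = 0.195).

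MT2A, the most widely expressed human metallothionein gene, MT1X and MT1A gave some of the brightest spots of the array. MT1X ranked between 3 and 32 of 20589 rows, MT2A between 4 and 28 and MT1A between 25 and 55. The deposited intensity was 56840 to 64542 for MT1X, 58620 to 62927 for MT2A and 51545 to 60104 for MT1A, with the brightest row of each array between 63833 and 68886. Between 53 and 65 rows of each array were above 50000. The files mark no spot as saturated, and whether these probes were at the limit of the scanner was not tested. A change in their transcripts could be understated at this height.

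On the normalized scale the lowest and highest arrays were 15.82 at 21 hours and 15.97 at 45 hours for MT1X, with a median of 15.91. They were 15.83 at 24 hours and 15.96 at 18 hours for MT2A (median 15.89), and 15.66 at 6 hours and 15.84 at 18 hours for MT1A (median 15.79). The highest was thus 1.11-fold above the lowest for MT1X, 1.09-fold for MT2A and 1.14-fold for MT1A. From the first to the last window the limma differences were 0.01 ± 0.03 for MT1X (SE, adjusted p = 0.775), -0.02 ± 0.03 for MT2A (adjusted p = 0.641) and 0.05 ± 0.04 for MT1A (adjusted p = 0.31).

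These small differences depended on the scaling. Quantile normalization gives probes of equal rank an equal value on every array. Median scaling instead moved the median difference of all tested probes between the first and last windows from -0.02 to 0.11, and gave 0.35 for MT1A (adjusted p = 0.019), 0.31 for MT1X (adjusted p = 0.0405) and 0.28 for MT2A (adjusted p = 0.0593), the last with its sign turned. The directions of MT1E, MT1F, MT1G and SLC30A1 in that comparison turned neither with median scaling nor with cyclic loess. With cyclic loess MT1A was 0.12 higher in the last than in the first window (adjusted p = 0.0425), and from 24-33 to 36-45 hours MT1A, MT1X and MT2A were higher by 0.21, 0.24 and 0.20 and were called.

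**Figure D3:**
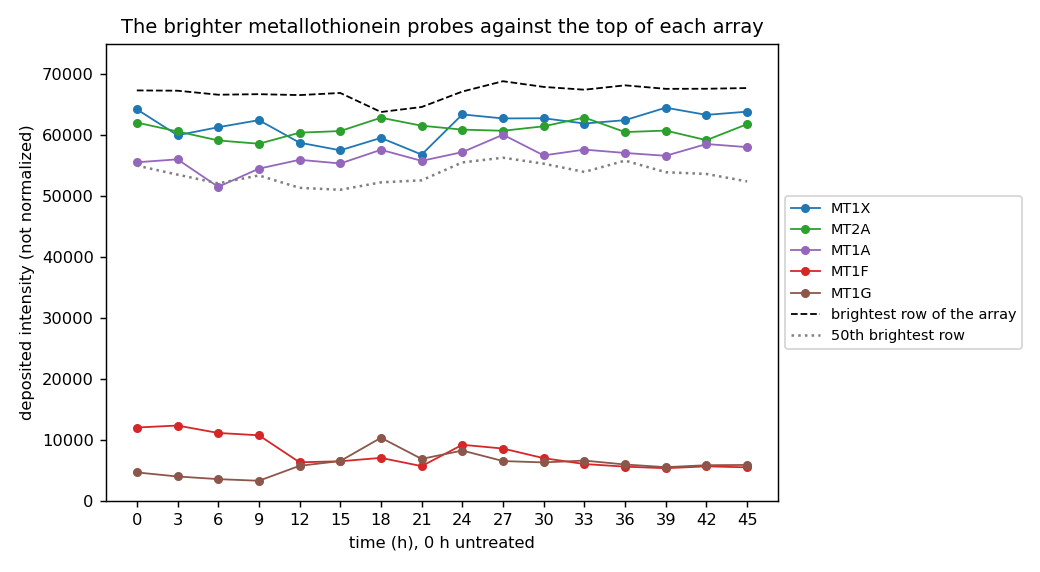
Deposited, not normalized intensity (y axis) against time in hours (x axis) for 5 metallothionein probes, with the brightest and the 50th brightest row of each array. MT1X, MT2A and MT1A stay between 51545 and 64542, close under the top of the array, while MT1F and MT1G lie at or below 12353.

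The tested members did not follow 1 course. Over the 16 arrays, which are consecutive times and not independent samples, 21 pairs of members were compared as a description. MT1F and SLC30A1, on different chromosomes, had the highest Pearson correlation (r = 0.84, rho = 0.77). MT1F and MT1G, separated in the cluster by 1 annotated long noncoding RNA gene, had the lowest (r = -0.70, rho = -0.49). MT1E stood at r = 0.44 with MT1G and r = -0.52 with MT1F. Human metallothionein transcripts are close to each other in sequence, and whether a probe also bound the transcript of another member was not tested.

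The probes whose courses were most like that of SLC30A1 over the 16 arrays were IER3 (r = 0.93), an early response gene, RNF34 (r = 0.91), RDH16 (r = 0.91), MRPL54 (r = 0.90) and SOCS1 (r = 0.90), an inhibitor of cytokine signaling, among 102 probes with r above 0.8. For the mean standardised course of the 6 tested metallothioneins they were C18orf25 (r = 0.89), RBJ (r = 0.82), CDC2L5 (r = 0.82), USP38 (r = 0.80) and SPG20 (r = 0.79). These 5 were not called by the spline test (adjusted p from 0.2035 to 0.9941), and the mean combines members that ran in opposite directions. Taken alone, a choice made after the values were seen, MT1E was most like CDKN1B (r = 0.94), which encodes the cell cycle inhibitor p27, and MT1F was most like ROPN1 (r = 0.96).

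The other genes of zinc handling were described as whole families. Of the 9 other SLC30A genes 5 were tested and 3 were called by the spline (54.6% of all tested probes were), SLC30A5, SLC30A7 and SLC30A9. SLC30A5, which loads zinc into the secretory pathway, was lower at 36-45 than at 0-9 hours by limma (difference -0.47, adjusted p = 0.00143), as was SLC30A3 (difference -0.33, adjusted p = 0.0498). SLC30A9 was higher (difference 0.41, adjusted p = 0.00098). The list had thus 1 called higher and 2 lower of 5, where 16.2% and 15.0% of all tested probes were, and a median difference of -0.18. At 12-21 hours SLC30A7 (difference 0.25) and SLC30A9 (difference 0.43) were called higher than in the first window and 0 of the 5 lower, with a median of 0.18. Of all tested probes, 15.1% were called higher and 14.4% lower there.

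Of 14 SLC39A importers, 12 were tested and 8 were called by the spline, where 54.6% of all tested probes were. Between the first and last windows SLC39A11 rose (difference 1.03, limma adjusted p = 0.000101) and SLC39A1, SLC39A3, SLC39A4 and SLC39A8 fell, with differences from -0.31 to -0.52. These are 1 higher and 4 lower of 12, where 16.2% and 15.0% of all tested probes were called, and the median of the 12 was -0.17. SLC39A10, a plasma membrane importer, rose between 0-3 and 6-9 hours by 1.04 (adjusted p = 0.000303), from its lowest value of 6.89 on the untreated array, and fell again from 24-33 to 36-45 hours (difference -0.95, adjusted p = 0.0016). In that early comparison SLC39A6 and SLC39A9 also rose, and SLC39A1 and SLC39A14 fell, so that 5 of 12 were called, where 24.7% of all tested probes were. At 12-21 hours 4 importers were higher than in the first window, SLC39A4, SLC39A8, SLC39A10 and SLC39A11, and SLC39A1 and SLC39A7 were lower, where 15.1% of all tested probes were called higher and 14.4% lower.

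MTF1 rose by 0.47 from 0-9 to 12-21 hours (limma adjusted p = 0.00912), and was lowest at 0 hours (7.81) and highest at 18 hours (8.58). MTF2, a chromatin protein that is named for its binding to metal response elements, rose by 0.71 in that comparison (adjusted p = 0.000436). Neither was called between the first and last windows. Of the other metallothionein symbols, 4 were on the array. MT1B was above background on 5 arrays and was tested but not called in any comparison (spline adjusted p = 0.261), MT4 was above background on 2 arrays, and MT3 and MT1JP on 0.

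**Figure D4:**
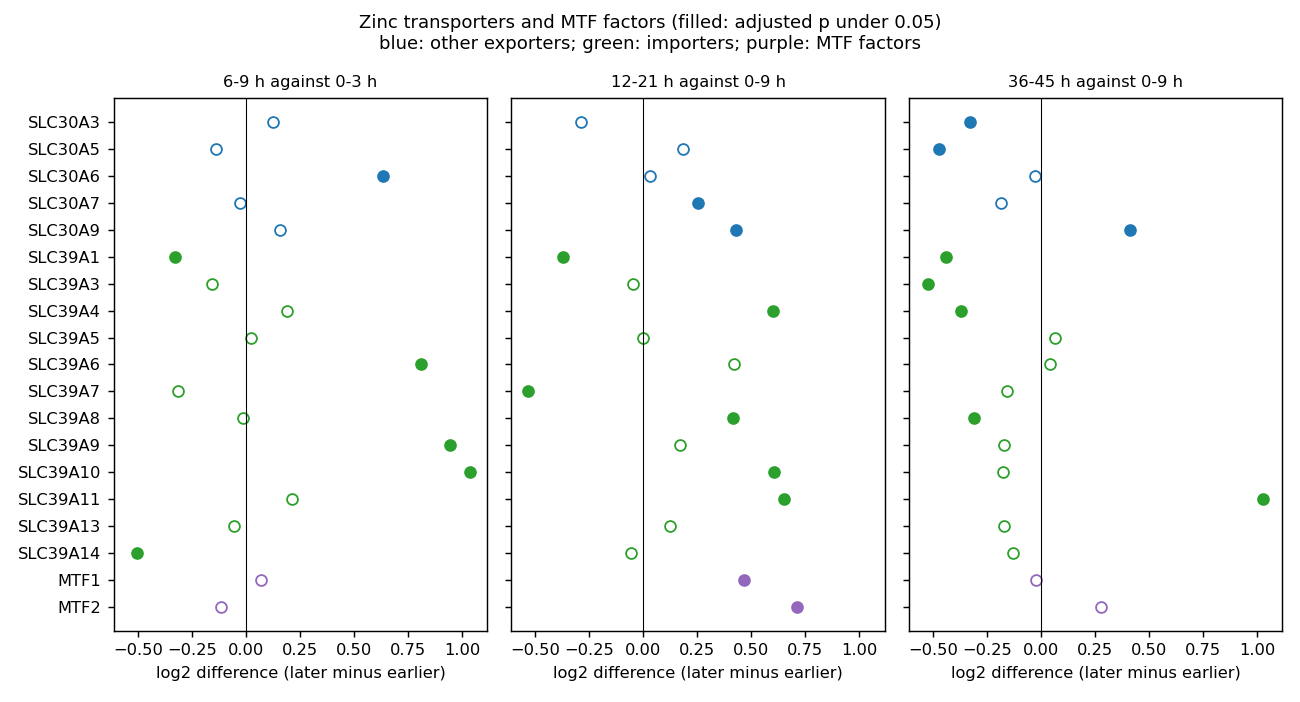
Log2 difference of the later from the earlier window (x axes) for the tested SLC30A exporters other than SLC30A1 (blue), SLC39A importers (green) and MTF genes (purple) in 3 comparisons. Filled points have an adjusted p under 0.05. SLC39A10 has the highest difference at 6-9 hours (1.04) and SLC39A11 at 36-45 hours (1.03).

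Copper carriers and cofactors were mixed. Of the 11 tested genes of copper handling, 6 were called by the spline, where 54.6% of all tested probes were. Between the first and last windows SLC31A2 (difference 0.45, limma adjusted p = 0.0166) and SOD1 (difference 0.15, adjusted p = 0.0346) rose while SLC31A1, the main copper importer, fell (difference -0.39, adjusted p = 0.0158), as did COX17 and SCO1. Of all tested probes, 16.2% rose and 15.0% fell in that comparison. The median of the list was -0.17.

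Glucocorticoid-induced genes were listed because hydrocortisone was in the medium throughout. By limma, 5 of the 9 tested fell between 0-3 and 6-9 hours and 0 rose, where 11.5% of all tested probes fell and 13.2% rose. The median difference of the 9 was -0.65, against -0.01 for all tested probes. From 0-9 to 36-45 hours 6 of 9 rose and 0 fell, where 16.2% of all tested probes rose and 15.0% fell, with a median of 1.03 against -0.02 for all. From 0-9 to 12-21 hours 1 of 9 was called (median 0.02), where 29.5% of all tested probes were called in either direction. From 24-33 to 36-45 hours 5 rose and 0 fell (median 1.04), where 19.3% of all tested probes rose and 18.7% fell. TSC22D3 (GILZ) fell by 2.66 early (adjusted p = 7.26e-06) and was 2.81 higher in the last window (adjusted p = 0.000399), and KLF9 fell by 0.65 and was 1.48 higher (adjusted p = 0.0303 and 2.82e-05). MT1G differed by -0.44 from 0-3 to 6-9 hours and by 0.63 from 0-9 to 36-45 hours, both called. It differed by 0.82 from 0-9 to 12-21 hours, which is called, and by -0.02 from 24-33 to 36-45 hours. In the same order MT1E was at -0.78, 0.95, 0.30 and 0.42, of which only 0.95 was called. MT2A was at -0.04, -0.02, 0.04 and 0.005, none called. MT1F was at -0.14, -1.05, -0.97 and -0.24, of which -1.05 and -0.97 were called. No test of a common course was made.

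Of the 8 tested NRF2 and heme oxygenase genes, NQO1, GCLM, GCLC, TXNRD1 and SRXN1 rose between 0-3 and 6-9 hours, SRXN1 by the most (difference 1.16, limma adjusted p = 1.48e-05), and 6 of 8 were called where 24.7% of all tested probes were. HMOX1, the stress-induced heme oxygenase, fell by 3.27 on the log2 scale (adjusted p = 2.11e-06). The earlier pair of that comparison holds its highest value, 10.83, on the treated array of 3 hours, and its lowest was 5.88 at 12 hours. No tested metallothionein was called higher between 0-3 and 6-9 hours, where 13.2% of all tested probes were. A link between these genes and the metallothioneins was not tested. From 0-9 to 36-45 hours 2 of the 8 rose, NQO1 and GCLC, and 2 fell, HMOX1 and SLC7A11, where 16.2% of all tested probes rose and 15.0% fell. SLC7A11 was above background on only 4 arrays, at a deposited intensity of 168 to 302, so its fall lies near the floor of the array.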

How the data were processed

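Per the labels, total RNA of MCF-10A cultures was hybridised to 1 Illumina human Ref8v2 array per time point. The authors deposited intensity values on a linear scale, not normalized, with a detection p-value for each row. The summary software, background correction and build of the annotation are not given in the sources used here, and the study's methods name quantile normalization.

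Negative control levels were inferred from the detection p-value on single-probe rows. In limma 3.58.1 (R 4.3.3), normexp correction with an offset of 16 was followed by quantile normalization between arrays and by log2. This offset compresses dim probes. A probe was tested where 3 or more of the 16 arrays gave it a detection p-value under 0.05, with limma and Benjamini-Hochberg adjustment, in a spline fit, a fit of 4 windows and a fit of 8 pairs (12, 12 and 8 residual degrees of freedom), tested first on simulated data. The simulated noise was independent between arrays, which that of consecutive times need not be. The number of arrays limits the precision.

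Members and lists were chosen with earlier results of these data known. All member probes were named, and from the lists, genes that were called in some comparison or were the 2 with the largest difference between the first and last windows. For likeness, the 5 highest correlations were named. Alternatives covered background, scaling, filter, variance, curve, arrays fitted and each array left out. Promoter sequences are RefSeq's (GRCh38.p14). Figures were drawn with matplotlib. One marker gene is not reported here.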

Additional observations from a re-analysis of the deposited data

How the results depend on the processing

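For the 7 tested members, 42 results were recomputed with each of the 16 arrays left out and under 8 to 10 other settings each. This gave 1029 recomputed values. Direction and call held in 953, a call was lost in 37 and gained in 19, and the sign turned in 20, all of them differences called neither before nor after. With median scaling these were MT2A from 0-9 to 36-45 hours (0.28), MT1X from 0-9 to 12-21 hours (0.0534), MT1A (0.10) and MT2A (0.0612) from 12-21 to 24-33 hours, and MT1X from 0-3 to 6-9 hours (-0.0230). With cyclic loess they were MT2A from 0-9 to 36-45 hours (0.0514), MT1A (-0.0005) and MT2A (-0.0139) from 0-9 to 12-21 hours, and MT1X from 12-21 to 24-33 hours (-0.0247). With the difference between the means of 12-21 and 24-33 hours taken out, MT1X became -0.0299 and MT2A 0.0442 from 0-9 to 36-45 hours. With 1 array left out, MT1X ranged from -0.0032 to 0.0242 from 0-9 to 36-45 hours. From 24-33 to 36-45 hours MT1G ranged from -0.0696 to 0.0751 and MT2A from -0.0061 to 0.0245. From 0-3 to 6-9 hours MT1A ranged from -0.1024 to 0.0186, MT1E from -1.67 to 0.11 and MT1X from -0.0070 to 0.0626. The members called by the spline numbered 4, 7 with cyclic loess and 2 to 4 with 1 array left out. From 24-33 to 36-45 hours 0 were called, and 1 with median scaling (MT1F), 3 with cyclic loess, 1 with only the 8 arrays compared (MT1E) and 0 to 1 with 1 array left out. From 0-3 to 6-9 hours 1 was called, and 0 with median scaling, 0 without an intensity trend, 0 with only the 4 arrays compared and 0 to 2 with 1 array left out.

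Of all tested probes, 6533 were called by the spline and 1953 by a straight line in time. For the first and last windows 3730 were called, and 2475 with only the 8 arrays compared. With the difference between the means of 12-21 and 24-33 hours taken out, 1617 were called. This alternative was chosen after seeing the data, and it uses all 4 window means, which makes its SE larger. MT1E was 0.72 higher under it (limma adjusted p = 0.284). With 8 arrays 2178 were called between the first and second windows, against 3527. From 12-21 to 24-33 hours 3 were called, and 1 to 12 under the alternatives. Between 0-3 and 6-9 hours 2957 were called, 882 with only the 4 arrays compared and 1694 without the array of 9 hours. Median scaling moved the split of rises and falls from 1932 and 1798 to 3207 and 841 between the first and last windows, from 1807 and 1720 to 3016 and 887 between the first and second, from 2309 and 2233 to 1741 and 2760 between 24-33 and 36-45 hours, and from 1583 and 1374 to 1618 and 927 between 0-3 and 6-9 hours. No paired analysis was possible because each time point had 1 array.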
